A study of Mus musculus with 25 samples.

Results

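Livers of 10 young mice were compared, 5 heterozygous for Manf and 5 wild type (WT), out of 25 livers sequenced in the series. The 10 were chosen by their labels of age, genotype and partner, and not by any measured value. All were C57BL/6 mice of 5 months that had been surgically joined for 5 weeks to an old WT mouse of 21 months, a preparation called heterochronic parabiosis in which the partners share blood. The old partners' livers were also sequenced, 5 from old WT mice joined to young WT mice and 5 from old WT mice joined to young heterozygous mice, and they serve below as the nearest comparison. The remaining 5 livers, from old WT mice joined to other old WT mice, enter only the estimate of spread. Young mice without a partner were not analysed here, so the effect of the genotype and that of the kind of pair cannot be told apart. The labels give no collection time, sex, litter, batch, allele design or match between an individual mouse and its partner.

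Manf (mesencephalic astrocyte-derived neurotrophic factor) encodes a small protein that is held in the endoplasmic reticulum (ER) and also secreted. Its transcript is induced when unfolded proteins build up in the ER, together with chaperones such as Hspa5 (BiP) and with disulphide isomerases, and MANF protein binds BiP. This unfolded protein response runs through the sensors IRE1, PERK and ATF6, and the transcription factors ATF6 and XBP1 act at a promoter sequence called the ER stress response element. The liver secretes most plasma proteins, and its hepatocytes carry a large ER. Hepatocytes also follow a circadian clock, in which the activators BMAL1 (Arntl) and CLOCK drive Per, Cry and Nr1d genes through E-boxes, and the PAR bZIP factors DBP, TEF and HLF act on output genes through D-boxes.

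The promoters of the ER and clock genes on which the results turn are shown because both groups of genes are known for the short elements searched. The sequences are from RefSeq (GRCm38.p6), run from 250 bases before to 50 bases after the annotated start, and are written 5′ to 3′ on the gene's own strand. In the following 4, from the genes of 2 chaperones (Calr, Hspa5), a disulphide isomerase (Pdia6) and the ER-resident protein CRELD2, capitals mark a match to the ER stress response element (CCAAT and CCACG with 9 bases between them) on either strand. The regions are chr15:88819396-88819695 (plus strand) for Creld2, chr8:84846882-84847181 (minus strand) for Calr, chr12:17266339-17266638 (plus strand) for Pdia6 and chr2:34771840-34772139 (plus strand) for Hspa5.
Creld2: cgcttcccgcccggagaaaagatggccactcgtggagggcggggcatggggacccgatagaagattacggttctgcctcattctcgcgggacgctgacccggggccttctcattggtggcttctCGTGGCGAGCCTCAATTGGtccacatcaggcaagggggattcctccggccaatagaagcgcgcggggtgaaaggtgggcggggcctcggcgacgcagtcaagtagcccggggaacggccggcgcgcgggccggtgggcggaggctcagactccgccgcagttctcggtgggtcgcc
Calr: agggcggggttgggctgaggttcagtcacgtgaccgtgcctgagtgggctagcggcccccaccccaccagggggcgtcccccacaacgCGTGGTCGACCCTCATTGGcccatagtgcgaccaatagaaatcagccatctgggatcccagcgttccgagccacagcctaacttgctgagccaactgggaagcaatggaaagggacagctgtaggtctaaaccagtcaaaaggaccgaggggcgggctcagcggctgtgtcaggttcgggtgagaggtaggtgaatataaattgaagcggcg
Pdia6: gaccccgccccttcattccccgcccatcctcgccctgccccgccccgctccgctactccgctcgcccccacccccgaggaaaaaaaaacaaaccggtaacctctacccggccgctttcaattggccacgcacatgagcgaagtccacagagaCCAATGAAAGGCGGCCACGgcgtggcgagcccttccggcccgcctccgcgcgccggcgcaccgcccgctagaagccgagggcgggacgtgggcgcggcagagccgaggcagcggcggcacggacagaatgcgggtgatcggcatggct
Hspa5: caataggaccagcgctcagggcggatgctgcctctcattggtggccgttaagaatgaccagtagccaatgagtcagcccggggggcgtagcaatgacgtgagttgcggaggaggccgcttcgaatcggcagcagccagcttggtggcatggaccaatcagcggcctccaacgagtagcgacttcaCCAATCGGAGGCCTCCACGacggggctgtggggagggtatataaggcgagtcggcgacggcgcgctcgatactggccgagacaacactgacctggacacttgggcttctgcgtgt

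A match to this element was found in 0.119% of 32841 promoters in the RefSeq table and in 0.159% of the promoters of genes tested here. Among ER chaperone and folding genes with a promoter in that table, 7 of 21 held a match, namely Calr, Canx, Creld2, Dnajc3, Hsp90b1, Hspa5 and Pdia6. Of these 7 genes, 5 passed the test between the young groups described below, and Dnajc3 and Hsp90b1 did not. Of all 21 genes with a promoter, 10 passed, against 5.13% of all tested genes. The related element, ATTGG and CCACG with 1 base between them, was found in 0.0365% of all promoters, in 0.0744% of those of tested genes and in 1 gene of this list, Dnajb11. Manf had no entry in the table.

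The following 2 promoters belong to clock genes. Capitals mark 3 E-boxes (CACGTG, a sequence that reads the same on both strands) in Ciart at chr3:95882179-95882478 (minus strand), and 2 D-boxes (TTATGTAA) in Per3 at chr4:151044616-151044915 (minus strand).
Ciart: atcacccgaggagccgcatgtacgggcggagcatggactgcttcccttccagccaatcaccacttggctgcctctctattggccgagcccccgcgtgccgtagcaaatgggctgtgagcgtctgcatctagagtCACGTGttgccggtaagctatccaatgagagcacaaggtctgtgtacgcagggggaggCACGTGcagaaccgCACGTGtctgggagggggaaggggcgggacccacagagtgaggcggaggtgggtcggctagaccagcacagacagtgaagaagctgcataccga
Per3: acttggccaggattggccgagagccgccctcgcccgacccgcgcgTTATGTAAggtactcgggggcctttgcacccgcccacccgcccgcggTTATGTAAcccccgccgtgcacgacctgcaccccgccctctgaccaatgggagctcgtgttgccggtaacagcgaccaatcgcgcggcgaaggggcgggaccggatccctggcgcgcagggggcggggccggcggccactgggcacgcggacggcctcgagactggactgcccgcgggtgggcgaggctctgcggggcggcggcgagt

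The E-box letters were found in 7.15% of all promoters, in 10.27% of those of tested genes and in 3 of 10 clock repressor and output genes with a promoter in the table (Ciart, Per1 and Tef). The D-box letters were found in 0.938% of all promoters, in 0.649% of those of tested genes and in 1 of those 10 (Per3). For the cholesterol genes described below, the sterol regulatory element (ATCACC directly followed by CCAC, either strand) was searched as well. It was found in 0.0913% of all promoters, in 0.0638% of those of tested genes and in 0 of 17 cholesterol genes with a promoter in the table. These are matches of letters in a short window. No binding was measured in these livers.

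Libraries of the young WT livers rested on 24.2 to 25.9 M reads (megareads) and those of the young heterozygous livers on 23.3 to 25.9 M, of which 62.2 to 66.6% fell on genes with values. Levels are the deposited RPKM (reads per kilobase of gene and megaread of the library), given as mean ± SD over 5 livers. Differences are log2 of RPKM plus 0.5, heterozygous minus WT, each with the SE and adjusted p of limma, and a gene passed at an adjusted p under 0.05. The added constant understates the change of genes with few RPKM. The limma p-values rest on the spread between animals within a group, pooled over all 5 groups of the series, old livers included. Across genes, libraries correlated at 0.978 to 0.989 within the WT group, at 0.981 to 0.992 within the heterozygous group and at 0.967 to 0.988 between the groups, and no pair held identical values. The tissue label was borne out by hepatocyte transcripts, whose 10 markers summed to 31879 to 44096 RPKM in WT and 23792 to 46371 RPKM in heterozygous livers. Albumin transcripts (Alb) made up most of these sums, averaging 23570 RPKM in WT and 18550 RPKM in heterozygous livers. In bulk tissue, fewer cells of a type and less RNA per cell cannot be told apart.

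Manf itself was lower in every heterozygous liver. The WT livers stood at 9.78, 19.4, 24.6, 10.5 and 11.99 RPKM and the heterozygous livers at 5.23, 5.94, 3.61, 4.33 and 3.25 RPKM. The groups did not overlap, and WT livers 2 and 3 were the highest of the 10. The means were 15.3 ± 6.47 and 4.47 ± 1.11 RPKM, a ratio of 0.293 and a log2 difference of -1.60 ± 0.23 (adjusted p = 0.00109). An exact two-sided permutation over all assignments of the 10 livers to groups of 5 gave p = 0.00794, the smallest it allows. In the annotation, exons of Manf overlap those of Rbm15b on the same strand and of Dcaf1 and another gene on the opposite strand, and the strand setting of the counting was not given in the sources used here. The old WT livers, which carry no Manf deletion, averaged 17.6 ± 2.46 RPKM when joined to young WT mice and 7.12 ± 1.81 RPKM when joined to heterozygous mice. Old mice joined to each other were at 8.86 ± 2.53 RPKM. The log2 difference of old livers, heterozygous partner minus WT partner, was -1.27 (adjusted p = 0.000671). The young and old differences did not pass the test of their own difference (adjusted p = 0.454).

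Across the transcriptome, 481 of 9372 tested genes passed between the young groups (5.13%), of which 349 were higher (3.72%) and 132 lower (1.41%) in heterozygous livers. The median difference over all tested genes was 0.05. Most changes were moderate, with a median size of 0.42 among higher and 0.63 among lower genes, and 23 higher and 25 lower genes reached a log2 difference of 1 in size. The levels of the groups did not overlap for 437 tested genes (4.66%), 297 of them higher (3.17%) and 140 lower (1.49%). The balance of directions depended on the scale. After median-of-ratios scaling, 215 genes passed as higher (2.29%) and 234 as lower (2.5%), 449 in all (4.79%), so that the higher genes were 47.9% of those passing against 72.6% on the deposited scale, and 347 of the 481 genes passed on both. Albumin transcripts took 8.59 ± 1.62% of gene reads in WT and 6.75 ± 2.43% in heterozygous livers (exact two-sided permutation p = 0.198, n = 5 each).

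The number of passing genes rested on a few livers. It fell to 140 without WT liver 2, to 238 without WT liver 3, and to 167, 150 and 164 without heterozygous livers 2, 3 and 4, and it rose to 731 without WT liver 5 and 829 without heterozygous liver 5. Without both WT livers 2 and 3, a choice made after seeing that ER genes were highest in them, 28 genes passed (0.299%), 15 higher (0.16%) and 13 lower (0.139%), and 27 of them were among the 481. These 27 included Manf, Arntl, Usp2, Per3, Hlf, Cldn1 and Pcsk4. In all 10 omissions of a single liver, 116 genes passed each time. Among the 54 named genes that passed, 20 did so, among them Manf, Egr1, Tubb2a, Hmgcs1, St5, Cldn1, Amt, Usp2, Ciart, Mfsd2a, Wee1, Per2, Per3, Pcsk4, Tef, Hlf, Gys2, Arntl and Clock. Of the 53 besides Manf, 31 did not pass without WT liver 2, 23 without WT liver 3, and 26, 24 and 29 without heterozygous livers 2, 3 and 4, and 0 changed direction.

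**Figure D1:**
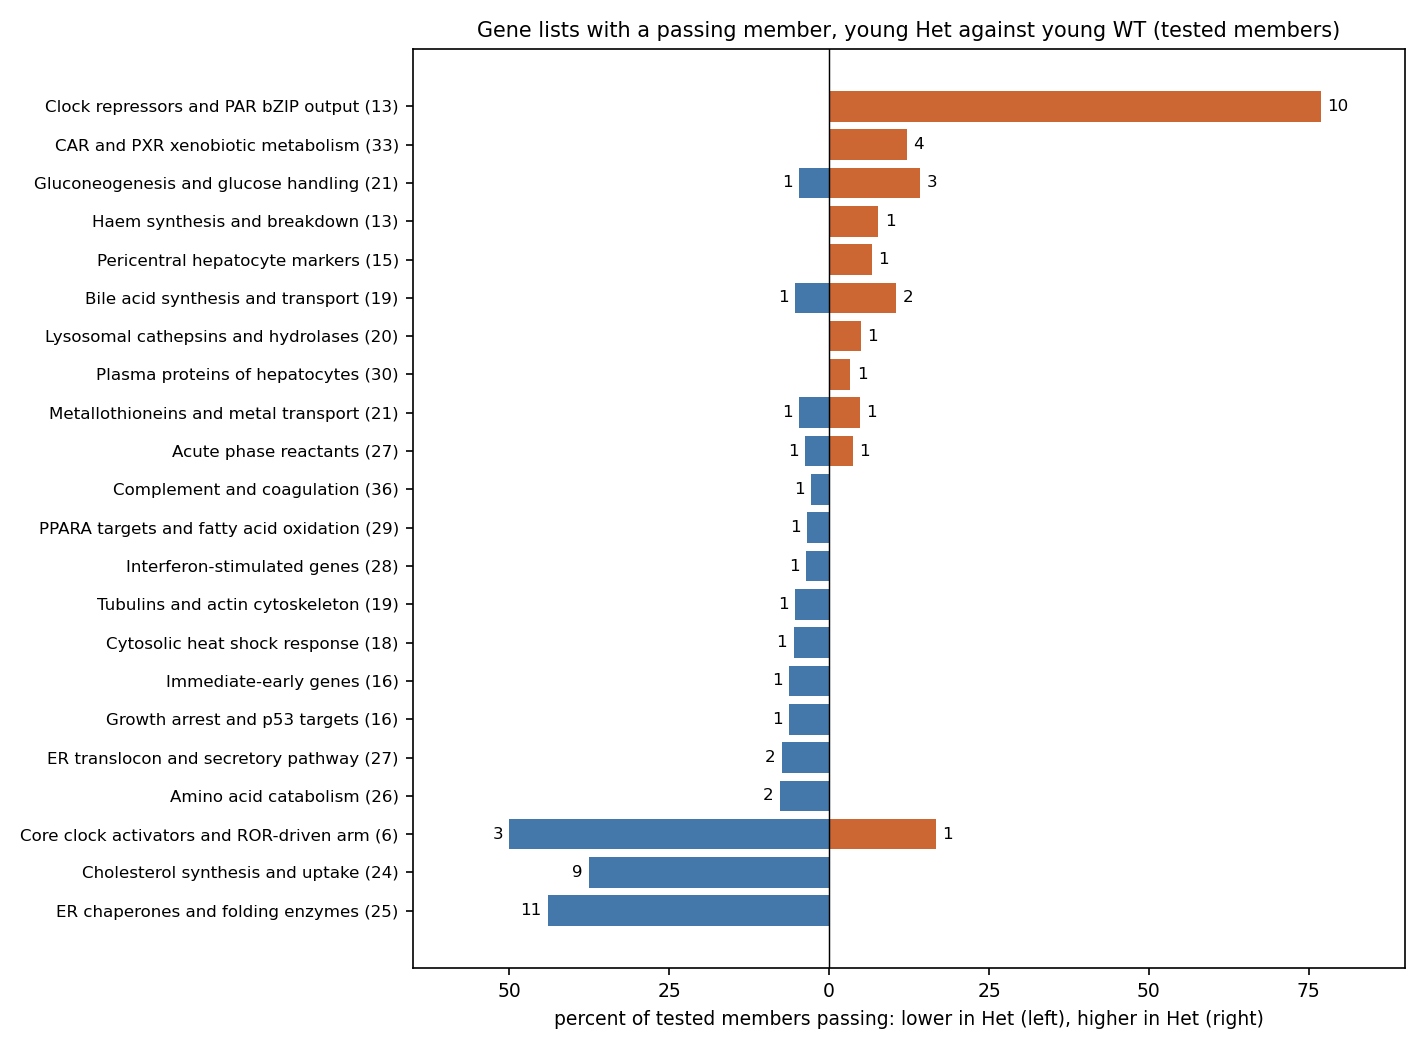
Share of the tested members of each gene list that passed between young heterozygous (Het) and young WT livers, lower to the left and higher to the right, with the number of passing members at each bar and of tested members in brackets. Only the 22 lists with a passing member are drawn. The longest bar is that of the 10 of 13 clock repressor and output genes that were higher. The longest bars to the left are 3 of 6 genes of the clock activating arm, 11 of 25 ER chaperone and 9 of 24 cholesterol genes.

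ER chaperones and folding enzymes formed the list with the most lower genes. Of 25 tested members, 11 fell and 0 rose, namely Manf, Sdf2l1, Creld2, Calr, Pdia4, Pdia6, Hspa5, Pdia3, Dnajb11, Ppib and Canx, and the median over the list was -0.34 against 0.05 over all tested genes. Manf is the targeted gene, so 10 of these were others. Over all tested genes 1.41% passed as lower. After median-of-ratios scaling 11 passed as lower as well.

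Sdf2l1, a component of an ER chaperone complex, stood at 9.73, 27.1, 25.1, 14.1 and 7.45 RPKM in WT livers and at 5.61, 5.59, 3.24, 3.34 and 6.65 RPKM in heterozygous livers. Every heterozygous liver was below every WT liver, and the log2 difference was -1.56 ± 0.34 (adjusted p = 0.0122). Calr, the lectin chaperone calreticulin, stood at 205, 300.1, 253, 209 and 144.12 RPKM in WT and at 144.06, 114, 101, 103 and 141 RPKM in heterozygous livers. The groups just failed to overlap, WT liver 5 and heterozygous liver 1 being nearly equal, and the difference was -0.85 ± 0.20 (adjusted p = 0.0152). Pdia4, a disulphide isomerase, averaged 55.3 ± 15.8 RPKM in WT and 31.0 ± 3.85 RPKM in heterozygous livers (-0.79 ± 0.18, adjusted p = 0.0132), also without overlap.

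For other members the groups overlapped. Creld2 stood at 9.26, 29.8, 25.8, 11.4 and 12.8 RPKM in WT livers and at 9.17, 9.78, 7.17, 6.71 and 5.40 RPKM in heterozygous livers (-1.05 ± 0.27, adjusted p = 0.0265). Hspa5, which encodes BiP, stood at 78.7, 139, 157, 77.1 and 83.8 RPKM in WT livers and at 79.6, 67.8, 61.9, 66.0 and 53.8 RPKM in heterozygous livers (-0.64 ± 0.19, adjusted p = 0.0453). In both genes WT livers 2 and 3 lay far above the other 3, which reached down to the highest heterozygous livers. The most abundant members that did not pass were P4hb, a disulphide isomerase, at 303 ± 49.1 against 271 ± 6.93 RPKM (-0.14, adjusted p = 0.398) and Hsp90b1, the ER form of HSP90, at 123 ± 36.3 against 88.6 ± 7.15 RPKM (-0.43, adjusted p = 0.0893).

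**Figure D2:**
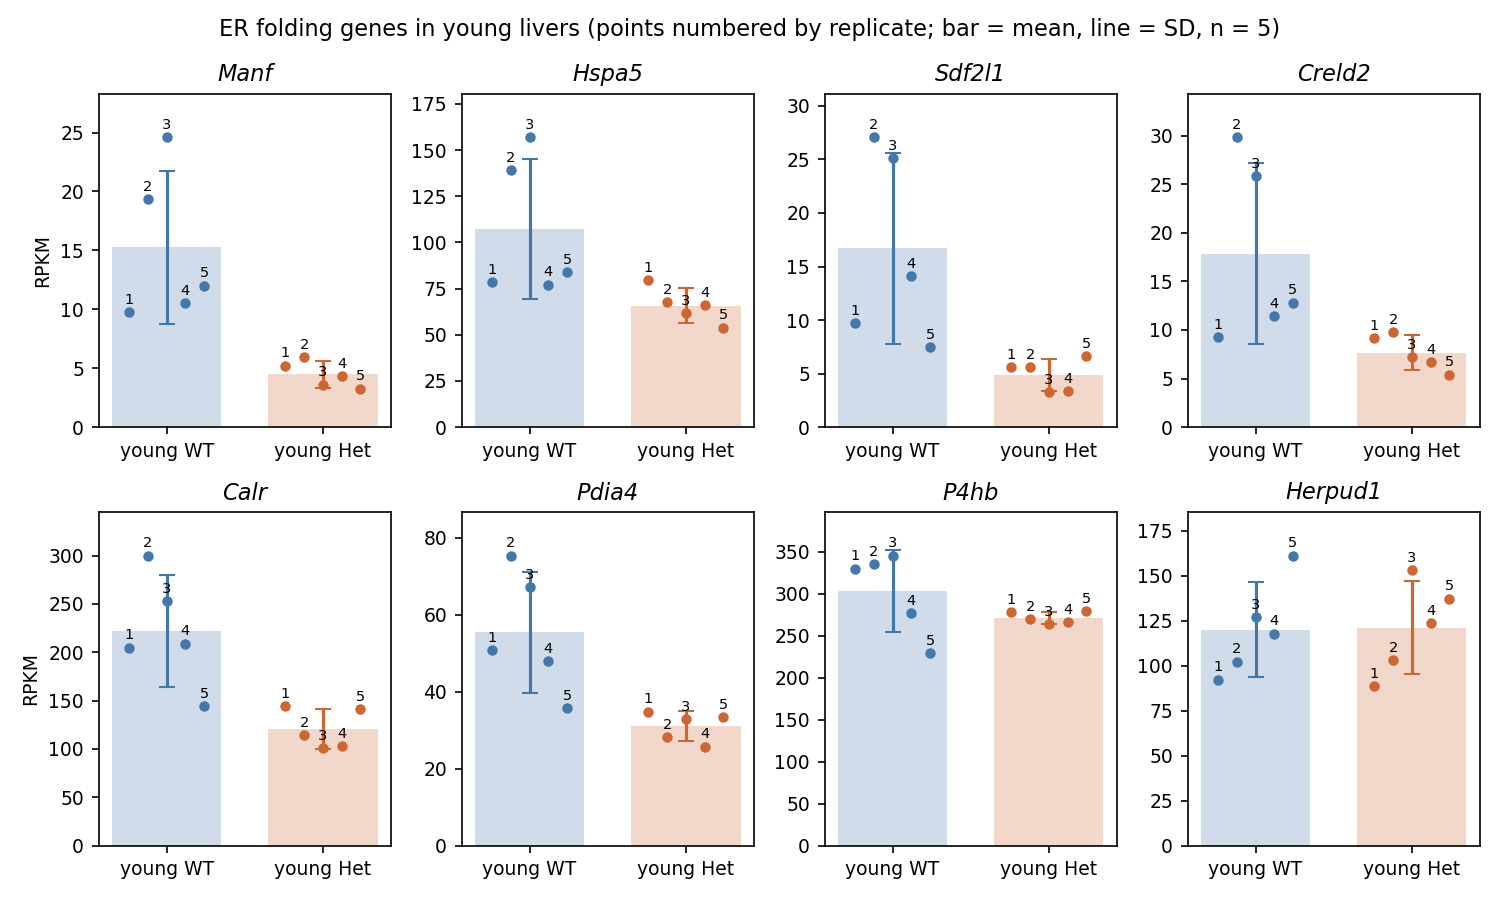
RPKM of 8 ER genes in each of 5 young WT and 5 young heterozygous (Het) livers; points carry the replicate number, bars are means and lines SD. WT livers 2 and 3 are the highest for Manf, Hspa5, Sdf2l1, Creld2, Calr and Pdia4, while P4hb and Herpud1 differ little between the groups (-0.14 and 0.01 on the log2 scale).

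The count of 11 depended on individual livers. It was 1 without WT liver 2, 4 without WT liver 3, and 5, 3 and 3 without heterozygous livers 2, 3 and 4. Without both WT livers 2 and 3 only Manf passed, and the median of the list was -0.21. WT liver 2 also carried pancreatic transcripts, a tissue rich in ER chaperones. The 5 acinar markers summed to 262 RPKM in it, the highest of the WT livers (13.1 to 262 RPKM, median 24.6), against 16.7 to 26.0 RPKM in heterozygous livers, and Amy2a5 was at 0 in all 10. The digestive protease gene Prss2 stood at 48.0 RPKM in WT liver 2 and at 0.1002 RPKM in WT liver 3, in which Hspa5 and Manf were higher than in WT liver 2. The part of these transcripts in the ER result was not tested.

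Fewer genes passed in the other lists of ER function. Among all 9372 tested genes, 5.13% passed and 2038 had an unadjusted p under 0.05. Of 20 tested genes for ER-associated degradation and stress sensing, 0 passed by limma on the deposited scale, while 7 had an unadjusted p under 0.05, 1 passed as lower after scaling and 2 passed with voom on recovered reads. Herpud1, a ubiquitin-like protein of ER degradation, averaged 120 ± 26.6 RPKM in WT and 121 ± 25.9 RPKM in heterozygous livers (0.01, adjusted p = 0.982). Xbp1, the transcription factor activated by IRE1, averaged 60.5 ± 16.9 and 65.1 ± 15.5 RPKM (0.12, adjusted p = 0.747); the spliced form cannot be read from gene totals. Of 17 tested genes of the ATF4 stress response, which lies below PERK, 0 passed by limma on the deposited scale, while 4 had an unadjusted p under 0.05, 1 passed as lower after scaling and 1 with voom. Atf4 was at 44.3 ± 5.30 and 42.5 ± 5.77 RPKM (-0.06, adjusted p = 0.819). Of 27 translocon and secretory pathway genes, 2 fell, both of the oligosaccharyl transferase that glycosylates new proteins (Rpn1, -0.48 ± 0.12, adjusted p = 0.0265; Ddost, -0.36 ± 0.10, adjusted p = 0.0454). In that list 12 genes had an unadjusted p under 0.05, 4 passed as lower after scaling and 4 passed with voom. Its 2 passing genes became 5 without WT liver 5, 1 without WT liver 4, and 0 without WT liver 1, 2 or 3 or heterozygous liver 2, 3 or 4. In the cytosol, 1 of 18 heat shock genes passed, the HSP110-family gene Hspa4l at -0.37 (adjusted p = 0.0469), which passed in 2 of 10 single omissions, and the constitutive chaperone Hspa8 was at 124 ± 16.6 and 118 ± 14.04 RPKM.

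Clock genes moved in opposite directions on the activating and repressing arms. Of 13 tested repressor and output genes, with a median of 1.02, 10 rose and 0 fell, against 3.72% and 1.41% of all tested genes. The 10 were Per1, Per2, Per3, Cry2, Ciart, Dbp, Tef, Hlf, Usp2 and Wee1. Of 6 tested genes of the activating arm, 3 fell (Arntl, Clock, Nfil3) and 1 rose.

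Arntl, which encodes BMAL1, stood at 0.801, 1.02, 0.950, 1.28 and 0.801 RPKM in WT livers and at 0.313, 0.0927, 0.0690, 0.114 and 0.228 RPKM in heterozygous livers. The groups were far apart, and the difference was -1.15 ± 0.16 (adjusted p = 0.00109) on a scale where the constant weighs heavily at such levels. Its partner Clock was at 3.18, 2.97, 3.18, 2.66 and 2.75 RPKM against 2.47, 1.39, 1.11, 1.47 and 1.68 RPKM, again without overlap (-0.73 ± 0.14, adjusted p = 0.00702). The CLOCK paralogue Npas2 was too low to be tested, at 0.162 ± 0.109 RPKM in WT and 0.0302 ± 0.0277 RPKM in heterozygous livers. Nfil3, a repressor at D-boxes, averaged 0.912 ± 0.359 and 0.391 ± 0.103 RPKM (-0.63 ± 0.17, adjusted p = 0.0282).

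Among the repressor and output genes, Usp2, a deubiquitinase under clock control, stood at 1.82, 0.682, 1.18, 1.09 and 2.74 RPKM in WT livers and at 4.32, 12.1, 14.1, 10.9 and 5.85 RPKM in heterozygous livers (2.28 ± 0.35, adjusted p = 0.00134). This was the largest positive difference among named genes. Dbp stood at 15.2, 6.22, 12.1, 13.4 and 23.1 RPKM against 27.3, 44.1, 45.9, 46.6 and 39.3 RPKM (1.59 ± 0.35, adjusted p = 0.0122). Ciart, a repressor of BMAL1 and CLOCK, stood at 0.923, 0.403, 1.41, 0.939 and 2.88 RPKM against 2.41, 11.1, 12.6, 9.37 and 5.48 RPKM (2.22 ± 0.42, adjusted p = 0.00557), and here heterozygous liver 1 fell within the WT range. Heterozygous livers 2, 3 and 4 were the highest for Usp2, Ciart and Per3, and WT liver 5 was the highest WT liver for Usp2, Ciart and Dbp.

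The period gene Per3 averaged 1.26 ± 0.346 RPKM in WT and 4.08 ± 1.32 RPKM in heterozygous livers (1.35 ± 0.23, adjusted p = 0.00345). Per1 and Per2 rose by 1.17 ± 0.30 (adjusted p = 0.0257) and 1.02 ± 0.22 (adjusted p = 0.0115). The PAR bZIP genes Tef and Hlf rose by 0.96 ± 0.17 (adjusted p = 0.00394) and 0.81 ± 0.12 (adjusted p = 0.00134), and the cell cycle kinase gene Wee1 by 1.51 ± 0.26 (adjusted p = 0.00345). Not every repressor rose. Nr1d1, which encodes REV-ERBα, was at 33.3 ± 9.17 RPKM in WT and 25.3 ± 5.79 RPKM in heterozygous livers (-0.37, adjusted p = 0.370), and Bhlhe40 was at 18.5 ± 7.75 and 23.3 ± 3.67 RPKM (0.45, adjusted p = 0.298). Exons of Arntl, Bhlhe40, Dbp, Nr1d1, Tef and Usp2 overlap those of a gene on the opposite strand in the annotation. Among other genes described here the same holds for Pdia6, Hsp90b1, Rpn1, Hmgcs1, Idi1, Cyp51, Alas1, Hsd3b7, Slc30a10, Fgg, Ftl1, St5 and Acnat2.

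**Figure D3:**
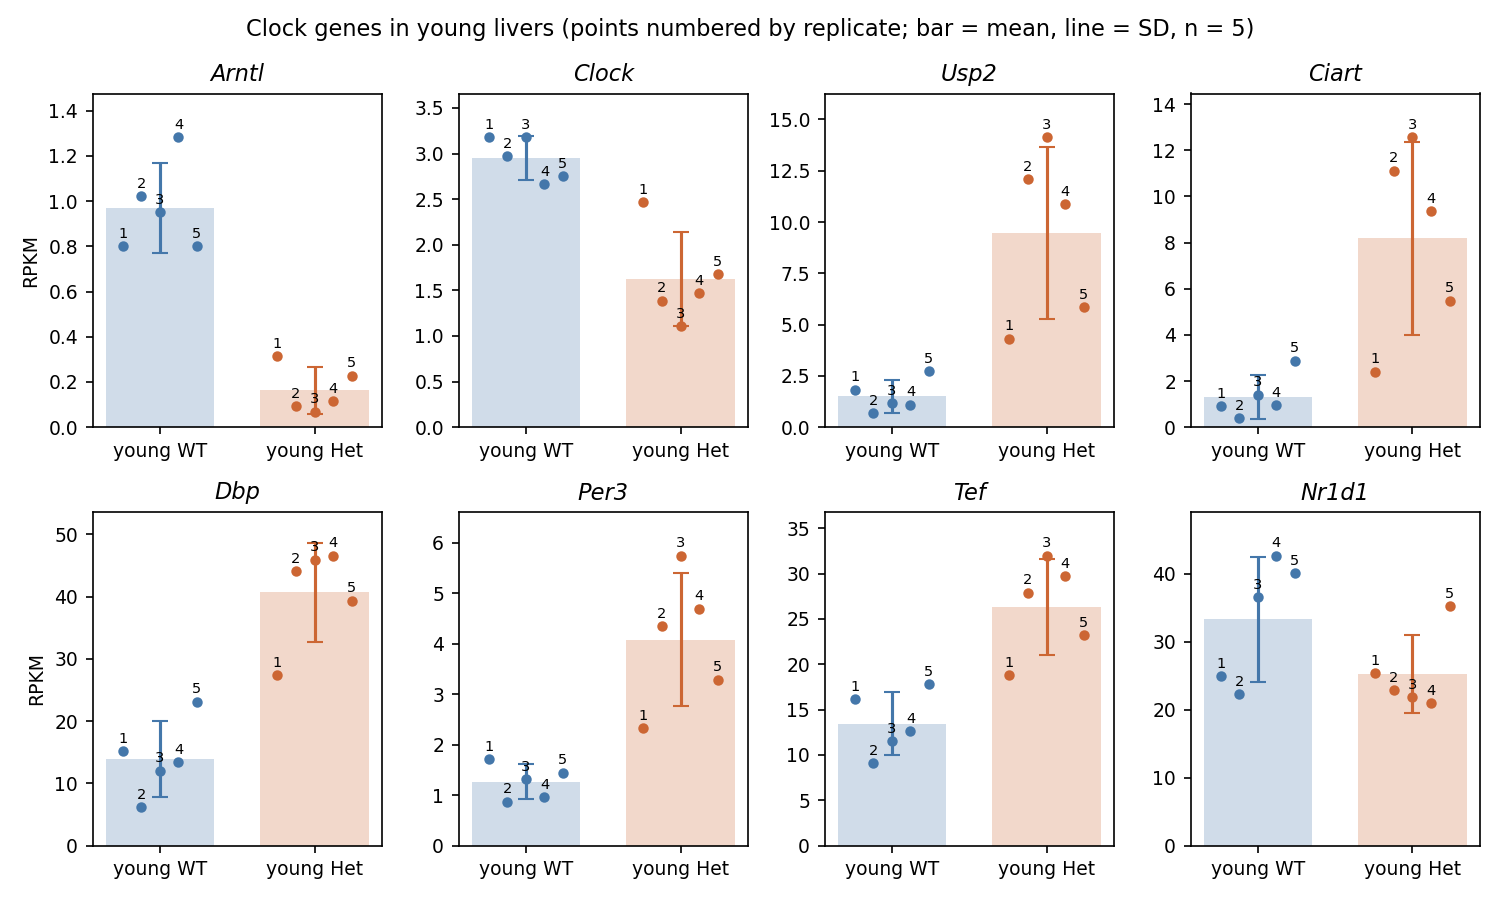
RPKM of 8 clock genes in each of 5 young WT and 5 young heterozygous (Het) livers; points carry the replicate number, bars are means and lines SD. Arntl and Clock are lower in every heterozygous liver, Usp2, Dbp, Per3 and Tef are higher in every one, Ciart overlaps in 1 heterozygous liver, and Nr1d1 overlaps.

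After median-of-ratios scaling, 9 of the 13 repressor and output genes passed as higher. Single omissions left 7 to 11, and without both WT livers 2 and 3 the count was 3 (Per3, Hlf and Usp2), with a median of 0.94. On the activating arm, 2 genes passed without WT liver 3 or without heterozygous liver 2, 3 or 4, against 4 with all livers, and 1 (Arntl) without both WT livers. In the old livers the repressor and output list had 12 genes higher with heterozygous partners and 0 lower. The activating arm had 1 higher and 3 lower there, and of all tested genes 3.07% were higher and 29.6% lower. Collection time is not in the labels, so a difference in the clock and a difference in the hour of collection between the 2 kinds of pair cannot be told apart.

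Cholesterol synthesis genes were lower in young heterozygous livers. Of 24 tested members, 9 fell and 0 rose, against 1.41% and 3.72% of all tested genes. The median was -0.70, and 22 of 24 differences were below 0. The 9 were Sqle, Hmgcs1, Mvd, Idi1, Cyp51, Dhcr7, Lss, Mvk and Insig1. All but Insig1, which retains the SREBP regulators in the ER, encode enzymes of the pathway. After scaling, 9 passed as lower.

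Hmgcs1, the synthase that makes HMG-CoA, stood at 57.3, 97.2, 92.1, 38.4 and 65.3 RPKM in WT livers and at 20.3, 11.7, 28.0, 18.2 and 30.7 RPKM in heterozygous livers. All heterozygous livers were below all WT livers, and the difference was -1.66 ± 0.34 (adjusted p = 0.00810). Sqle, the squalene epoxidase, stood at 9.19, 13.3, 15.997, 4.33 and 10.7 RPKM against 0.975, 0.607, 4.05, 2.26 and 7.34 RPKM (-1.91 ± 0.48, adjusted p = 0.0235). Heterozygous liver 5 and WT liver 4 crossed in this gene. Idi1, the isopentenyl diphosphate isomerase, fell by 1.40 on the log2 scale (adjusted p = 0.0312), Mvd, which makes that diphosphate, by 1.43 (adjusted p = 0.0212), and Cyp51, a sterol demethylase, by 1.14 (adjusted p = 0.0323).

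Of 21 lipogenesis genes, 0 passed by limma on either scale or with voom (4 at an unadjusted p under 0.05), and the desaturase gene Scd1 was at 709 ± 337 and 771 ± 120 RPKM (0.25, adjusted p = 0.686). The count of cholesterol genes fell to 2 without WT liver 2, to 3 without WT liver 3, to 5 without heterozygous liver 1, and to 2 without heterozygous liver 2 or heterozygous liver 4. It was 0 without both WT livers 2 and 3, with a median of -0.58.

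In the old livers the same list leaned the other way, with 4 genes higher and 0 lower with a heterozygous partner and a median of 0.26, while the median over all tested genes was -0.14. Sqle was at 0.73 there (adjusted p = 0.244) and Hmgcs1 at 0.17 (adjusted p = 0.727). The test of the difference between the young and old contrasts did not pass for any member, with an adjusted p of 0.0641 for both Sqle and Hmgcs1, so the lists are not shown to differ.

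**Figure D4:**
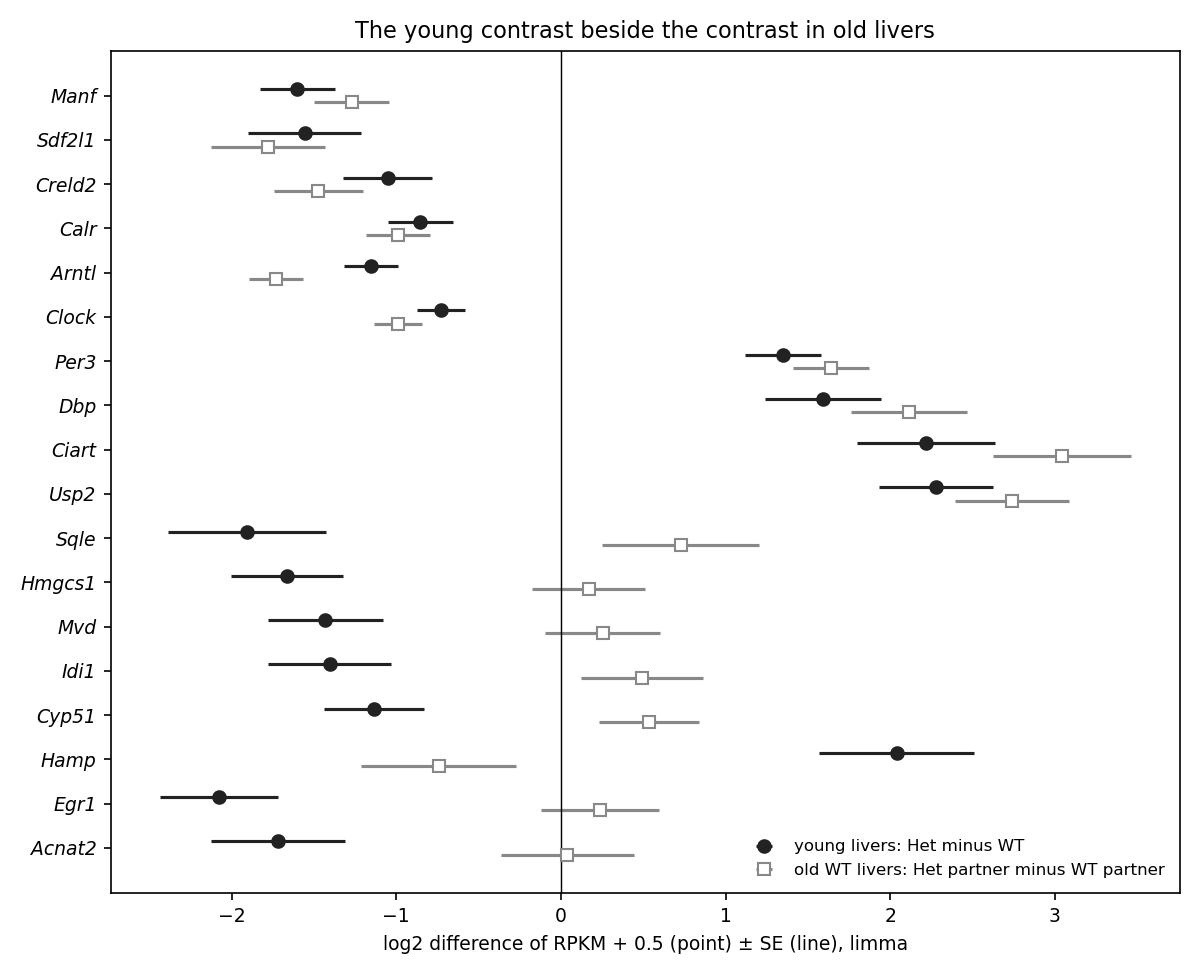
Log2 differences ± SE (limma) of 18 genes in young livers, heterozygous minus WT (filled circles), and in old WT livers, heterozygous partner minus WT partner (open squares). ER and clock genes lie on the same side of 0 in both, while cholesterol genes lie at -1.14 to -1.91 in young livers and above 0 in old livers; no gene shown passed the test of the difference.

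Several metabolic genes outside these groups were among the largest differences. Hamp, which encodes the iron hormone hepcidin, stood at 311, 157, 363, 652 and 423 RPKM in WT livers and at 2240, 1799, 981, 1726 and 845 RPKM in heterozygous livers. The groups did not overlap, and the difference was 2.04 ± 0.47 (adjusted p = 0.0155; without WT liver 2 it did not pass). The close copy Hamp2 could share reads with Hamp. In old livers Hamp was at -0.74 (adjusted p = 0.226), and the difference between the contrasts did not pass (adjusted p = 0.0632). The iron storage genes Fth1 and Ftl1 were at 0.12 (adjusted p = 0.367) and 0.31 (adjusted p = 0.213). Hamp is also listed among acute phase reactants, of which 1 of 27 rose (Hamp) and 1 fell, against 3.72% and 1.41% of all tested genes. The gene that fell was Crp, C-reactive protein (-0.39, adjusted p = 0.0357), and the median of the list was -0.34. The 2 passing genes of that list became 7 without heterozygous liver 5, 5 without WT liver 5, 0 without WT liver 2 and 1 without any other single liver, and Crp passed in 2 of 10 single omissions. Fgg, a fibrinogen chain, was at 1476 ± 300 and 1048 ± 236 RPKM (-0.49, adjusted p = 0.0963).

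Alas1, the rate-limiting enzyme of haem synthesis in liver, stood at 34.3, 43.3, 44.2, 14.4 and 58.3 RPKM in WT livers and at 134, 170, 101, 166 and 60.2 RPKM in heterozygous livers. The groups just failed to overlap, heterozygous liver 5 lying nearest to WT liver 5, and the difference was 1.72 ± 0.41 (adjusted p = 0.0177). The remaining 12 of 13 haem genes did not pass. Cyp2a5, a cytochrome induced by xenobiotics, stood at 149, 130, 151, 166 and 162 RPKM against 297, 365, 1182, 448 and 215 RPKM (1.46 ± 0.39, adjusted p = 0.0323), and its close paralogues could share its reads. Por, the reductase of cytochromes P450, and Cyp2e1 rose by 0.78 ± 0.22 (adjusted p = 0.0419) and 0.57 ± 0.14 (adjusted p = 0.0235). With Alas1 these made 4 of 33 tested genes of xenobiotic metabolism that rose and 0 that fell, against 3.72% and 1.41% of all tested genes. After scaling 3 rose, and Por did not pass (adjusted p = 0.0574). The count of 4 became 1 without WT liver 2, 2 without WT liver 3 and 1 without heterozygous liver 3. It became 0 without heterozygous liver 2 or 4, and 7 without heterozygous liver 5.

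In glucose handling, 3 of 21 genes rose and 1 fell, against 3.72% and 1.41% of all tested genes. Gys2, the liver glycogen synthase, averaged 45.1 ± 12.9 RPKM in WT and 97.3 ± 21.9 RPKM in heterozygous livers (1.12 ± 0.22, adjusted p = 0.00729) without overlap, and it passed in all 10 single omissions. Ppp1r3b, a subunit that targets a phosphatase to glycogen, averaged 13.9 ± 1.44 and 6.79 ± 1.12 RPKM (-0.99 ± 0.25, adjusted p = 0.0264). Slc37a4, the glucose-6-phosphate transporter, rose by 0.78 (adjusted p = 0.0203), and Slc2a2, the main hepatocyte glucose transporter, by 0.65 (adjusted p = 0.04996, and 0.0969 after scaling). Pck1, a key enzyme of gluconeogenesis, was at 453 ± 120 and 545 ± 170 RPKM (0.25, adjusted p = 0.605). Without WT liver 2 the list held 1 passing gene, without WT liver 3 it held 2, without heterozygous liver 2, 3 or 4 it held 1, and without both WT livers it held 0.

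Bile acid genes divided by scale. On the deposited scale the transporter gene Slc10a1 (0.48, adjusted p = 0.0488) and the receptor gene Nr1h4 (0.46, adjusted p = 0.0373) rose and the synthesis gene Hsd3b7 fell (-0.48, adjusted p = 0.0175), while after scaling 0 of 19 passed as higher and 2 as lower. Of all tested genes 3.72% rose and 1.41% fell on the deposited scale, and 2.29% and 2.5% after scaling. The 3 passing genes became 0 without WT liver 3 or heterozygous liver 3 or 4, 1 without WT liver 2 or 4 or heterozygous liver 2, and 6 without heterozygous liver 1. In amino acid catabolism, 2 of 26 genes fell, against 1.41% of all tested genes. Both genes belong to the glycine cleavage system, Gldc (-0.78 ± 0.18, adjusted p = 0.0140) and Amt (-0.47 ± 0.10, adjusted p = 0.00878). That count was 1 without WT liver 2 or heterozygous liver 3, 3 without WT liver 5 or heterozygous liver 5, 4 without WT liver 4, and 0 without both WT livers 2 and 3. The metal transporter gene Slc30a10, which exports manganese, fell by 0.84 (adjusted p = 0.0393), passing in 3 of 10 single omissions.

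Other large differences were spread over functions. Egr1, an immediate-early transcription factor, stood at 2.58, 11.4, 4.76, 2.17 and 3.88 RPKM in WT livers and at 0.482, 0.211, 1.31, 0.211 and 1.36 RPKM in heterozygous livers (-2.08 ± 0.36, adjusted p = 0.00345). It passed in all 10 single omissions, and it was the only one of 16 tested immediate-early genes to pass, against 5.13% of all tested genes. Tubb2a, a beta-tubulin whose close paralogues could share reads, stood at 15.0, 34.3, 18.6, 27.3 and 13.5 RPKM against 16.9, 3.26, 3.15, 3.36 and 6.84 RPKM (-1.84 ± 0.38, adjusted p = 0.00823), heterozygous liver 1 lying within the WT range. The tight junction protein Cldn1 (-1.25 ± 0.23, adjusted p = 0.00546) and St5 (-1.26 ± 0.26, adjusted p = 0.00866) were lower. The acyltransferase-like gene Acnat2 fell by 1.72 (adjusted p = 0.0170) and passed in 6 of 10 single omissions.

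On the higher side, Mfsd2a, a transporter of lysophospholipids, stood at 3.26, 2.43, 5.12, 3.05 and 5.71 RPKM in WT livers and at 20.4, 14.2, 17.0, 11.995 and 6.08 RPKM in heterozygous livers (1.67 ± 0.36, adjusted p = 0.0110). Pcsk4, a proprotein convertase, rose by 1.26 ± 0.19 (adjusted p = 0.00134) and Gpcpd1, a glycerophosphodiesterase, by 1.26 ± 0.34 (adjusted p = 0.0321). Pcsk4 passed in 10 of 10 single omissions, while Gpcpd1 passed in 4 of 10 and its groups overlapped. Tsku, a secreted proteoglycan, was higher in 4 heterozygous livers (12.9 to 17.9 RPKM) and lay at 2.68 RPKM in heterozygous liver 5, against 1.43 to 6.47 RPKM in WT livers (1.54 ± 0.44, adjusted p = 0.0417, and 0.056 after scaling). It passed in 3 of 10 single omissions.

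Transcripts of other liver cells gave few calls. Of the marker lists for Kupffer cells (11 tested), sinusoidal endothelium (9), stellate cells (8), hepatocytes (10) and, as a reference, cytosolic ribosomal proteins (36), 0 members passed by limma or with voom, with medians of -0.09, -0.19, 0.06, -0.10 and 0.10. At an unadjusted p under 0.05 the hepatocyte list had 3 members and the other 4 lists had 0, while 2038 of all 9372 tested genes reached that value. The markers of monocytes (10 tested), erythroid cells (5), B cells (3), T and NK cells (2) and cholangiocytes (1) also gave 0 members by limma, with voom or at that unadjusted value. Both tested neutrophil markers, S100a8 and S100a9, reached it and lay at -0.63 and -0.89, but neither passed by limma (lowest adjusted p = 0.113) or with voom, and 1 passed without WT liver 5. The 6 neutrophil markers summed to 2.42 to 9.86 RPKM in WT and 1.66 to 4.13 RPKM in heterozygous livers, ranges that overlap. WT livers 2 and 3 were the highest of the 10 for both S100a8 and S100a9, as they were for Manf and Hspa5, and the part of these cells in the other results was not tested. Of 28 tested interferon-stimulated genes, 1 fell, Mx2, against 1.41% of all tested genes. The Kupffer cell markers summed to 170 to 353 RPKM in WT and 216 to 311 RPKM in heterozygous livers. The T and NK cell markers summed to 1.23 to 14.7 RPKM in WT (median 1.93) and 1.79 to 3.01 RPKM in heterozygous livers (median 1.97). The median difference of their 2 tested members was -0.38, and 0.06 without both WT livers 2 and 3. The part of T and NK cells in the other results was not tested. In all, 51 gene lists were examined, 22 had a passing member and 28 with tested members had none.

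The old livers joined to the same 2 kinds of young mouse gave the nearest comparison, and they share no library with the young livers, although partners share blood. There, 3065 genes passed (32.7%), 288 higher (3.07%) and 2777 lower (29.6%), with a median over all tested genes of -0.14 that was removed by scaling. After scaling 1730 passed (18.5%), 837 higher (8.93%) and 893 lower (9.53%). Of the 349 genes higher in young heterozygous livers, 111 were also higher in old livers with heterozygous partners, which is 31.8% of the young and 38.5% of the old list, and 3 were lower (Cdk13, Ngrn and Tada2a, named after their values were seen). Of the 132 lower genes, 96 were also lower there, which is 72.7% of the young and 3.46% of the old list, and 0 were higher. After scaling, 138 of 215 higher genes (64.2%, and 16.5% of the old list) and 145 of 234 lower genes (62.0%, and 16.2%) passed in the same direction, and 0 in the opposite one.

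The difference between the young and old contrasts was tested directly, with every liver treated as independent although joined partners share blood. It passed for 1 of 9372 genes (0.0107%) on the deposited scale, where the median of this difference over all genes was 0.21 and 2937 genes had an unadjusted p under 0.05. The gene was Ngrn, which encodes a protein of mitochondrial ribosome assembly. It stood at 5.77, 6.01, 5.86, 6.19 and 5.92 RPKM in young WT and at 7.23, 6.82, 6.52, 6.64 and 7.40 RPKM in young heterozygous livers (0.20 ± 0.06, adjusted p = 0.0367), and it was at -0.27 in old livers (adjusted p = 0.00162), a difference of 0.47 between the contrasts (adjusted p = 0.0377). After scaling, 0 genes passed by limma and 791 had an unadjusted p under 0.05, and with voom on recovered reads 0 passed. A gene that passed in young and not in old livers, Hamp or Sqle among them, was therefore not shown to differ between them.

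**Figure D5:**
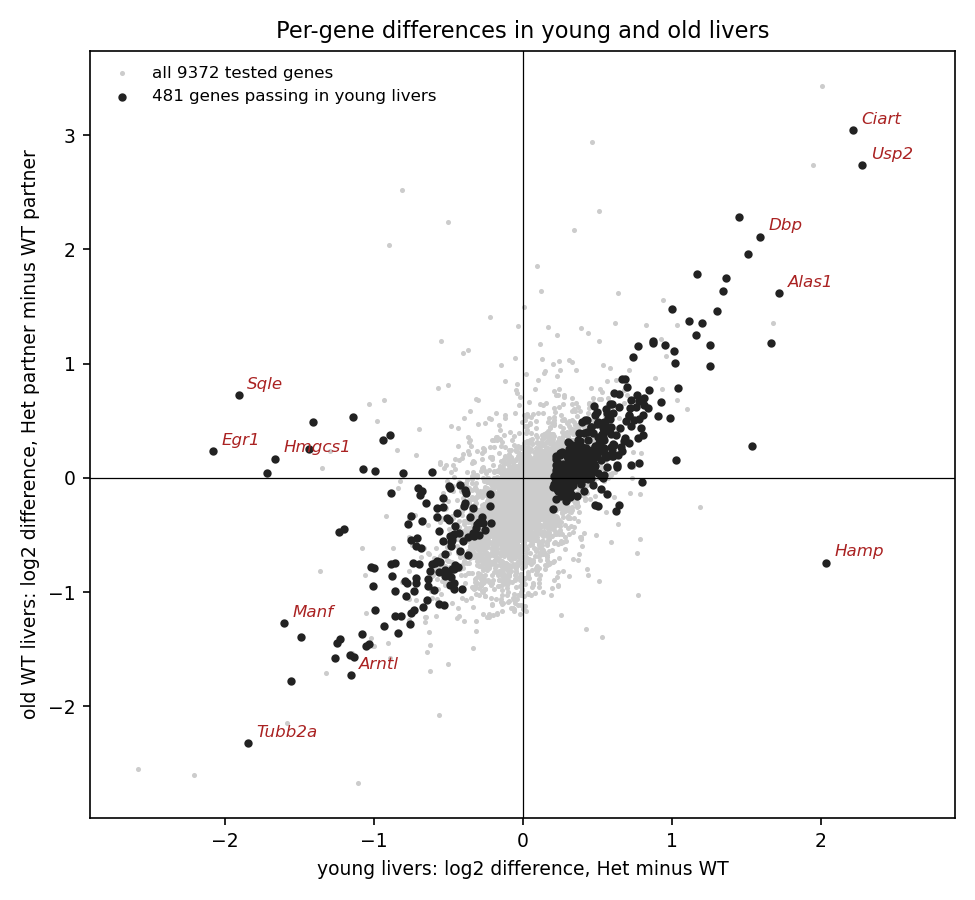
Log2 difference of each tested gene in young livers, heterozygous minus WT (x axis), and in old WT livers, heterozygous partner minus WT partner (y axis); black points are the 481 genes passing in young livers. Clock genes lie at the upper right and, with Manf, at the lower left, while Sqle, Hmgcs1, Egr1 and Hamp lie away from that diagonal.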

How the data were processed

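The authors deposited a single table of RPKM values for 25 livers. STAR 2.4.2a, HTSeq and mm10 are named in the submitters' processing notes, per the labels; the labels' protocols give Trizol extraction and a stranded mRNA kit. Of 60354 rows, 24132 held values, and 1 infinite row (Plin2) and 24 rows bearing date numbers were left out. Whole reads were recovered for 100% of 17838 genes above 0, within 0.02 reads, and gave the depths. For 14320 genes the annotated gene length gave whole reads. For the other 3518 the shortest length that did so was fitted.

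The 9372 genes that reached 1 RPKM in 5 or more of 25 libraries were fitted as log2(RPKM + 0.5) in limma 3.58.1 (R 4.3.3) with an intensity trend and 5 groups (20 residual degrees of freedom), with Benjamini-Hochberg adjustment over all of them and a threshold of 0.05. The analysis was tested on simulated reads in which each gene varied independently. Livers in which many genes shift together were not simulated. Alternatives were other constants and filters, median-of-ratios scaling, Albumin left out of the total, weights per library, a replicate block, voom on recovered reads, only the groups compared, and livers left out.

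Named genes are Manf, the 12 largest differences per direction among passing genes averaging 1 RPKM or more in young livers (predicted genes left out), up to 5 passing and 2 abundant other members of each described list, and genes of the interaction; Per1, Per2, Tef, Hlf, Npas2, Hspa5 and Prss2 were added after their values were seen. A few genes that the rule or the lists hold are counted but not reported here by name. The members and lists were chosen with earlier results of these data known. Figures used matplotlib 3.10.9, and other steps pandas 2.3.3 with numpy 2.4.6 in Python 3.11.15.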

Additional observations from a re-analysis of the deposited data

Results flagged for a closer look

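Among 176 groups of 5 young livers (88 genes), 8 held a liver whose gap to the nearest other exceeded 0.71 of the group's range. Gap and range were taken on the log2 scale with the added constant, as for the differences, and not on the RPKM listed here. Chance alone gives such a gap in about 1 in 20 groups. In heterozygous livers, Tsku in liver 5 stood at 2.68 RPKM (others 12.9 to 17.9) and Fgg in liver 5 at 1467 RPKM (others 893 to 973). In WT livers, Atf5 in liver 3 stood at 62.6 RPKM (others 78.9 to 81.4), Cry1 in liver 3 at 0.783 RPKM (others 1.58 to 2.02), Cyp51 in liver 4 at 15.8 RPKM (others 32.1 to 37.7), Prss2 in liver 2 at 48.0 RPKM (others at most 0.1002), Ebp in liver 1 at 92.3 RPKM (others 63.6 to 67.9) and Crp in liver 1 at 126 RPKM (others 84.2 to 93.3).

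For Ngrn, the young contrast exceeded the old one by 0.47 on the log2 scale, the only gene whose difference between the contrasts passed by limma on the deposited scale (adjusted p = 0.0377). After median-of-ratios scaling it did not pass in the young contrast (adjusted p = 0.123).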

How the results depend on the processing

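The count of 481 genes passing between young groups became 279 without a filter on low values, 1122 with weights per library, 173 with only the groups compared, 28 without both WT livers 2 and 3, and 140 to 829 with a single liver left out. The old contrast (3065) became 1444 at a minimum of 5 RPKM, 1730 after median-of-ratios scaling, 1993 with Albumin left out of the total, 1704 with voom, and 1957 (without liver 4 with a heterozygous partner) to 3486 with a liver left out. The difference between the contrasts (1 gene) became 6 without a filter, 2036 with weights, 3 with the replicate block, 0 after scaling, with Albumin left out, with voom, with only the groups compared and without both WT livers 2 and 3, and 0 to 1234 with a liver left out, the largest counts coming without old liver 4 with a WT partner (1234), young heterozygous liver 5 (914) and old liver 5 with a heterozygous partner (679). The cause of these changes was not tested.

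Manf stayed at -1.73 to -1.41 with a liver left out, with an exact permutation p of 0.00794 each time. The Alb share difference ranged from -2.81 to -1.19 percentage points (exact permutation p 0.0317 to 0.373), passing without heterozygous liver 5. The replicate numbers did not pair young WT with young heterozygous livers. Their same-numbered deviations correlated at -0.125 to 0.079, and 0 of 5 correlated best with their own number. Whether the numbers match young livers to those of their old partners was not tested. With the replicate block 424 genes passed, 45 of 53 named passing genes other than Manf kept their call, and Manf was at -1.60 (adjusted p = 0.00336 by limma), although exact sign flips of 5 pairs gave p = 0.0625, the smallest they allow. Of the 53, 47 kept their call after scaling, 32 without a filter, 30 with only the groups compared and 6 without both WT livers 2 and 3, and 0 reversed under any alternative run. Recovered depth limits genes with few RPKM, such as Arntl.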

Other observations

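Mitochondrial genes outside the lists were grouped by symbol after their values were seen, so their counts are a description. Among all tested genes 3.72% passed as higher. Of 22 tested genes of the protein import machinery of the mitochondrial membranes (Tomm and Timm symbols), 4 passed as higher and 0 as lower, namely Timm8a1, Timm9, Timm17a and Tomm20, with a median of 0.15 against 0.05 over all tested genes. After median-of-ratios scaling 4 passed as higher, and without both WT livers 2 and 3 Timm17a and Tomm20 passed. Of 74 mitochondrial ribosomal protein genes (Mrpl and Mrps symbols), 4 passed as higher and 0 as lower, a share near that of all tested genes, with a median of 0.07, while after scaling 2 passed as higher and 2 as lower, and without both WT livers 0 passed by limma. In the nuclear-encoded respiratory chain 0 of 31 tested genes passed by limma or with voom, 8 had an unadjusted p under 0.05, and the median was 0.12.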
